A study of Mus musculus with 18 samples.

Results

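Acid secretion by the stomach is set by receptors that parietal cells, and the endocrine cells around them, carry for the hormones, transmitters and local mediators of the mucosa. The 8 receptor genes described here were chosen by name: *Hrh2*, *Cckbr* and *Chrm3* for the secretagogues histamine, gastrin and acetylcholine, *Sstr1* and *Sstr2* for somatostatin, *Ptger3* and *Ptger4* for prostaglandin E, and *Casr* for extracellular calcium. They are 8 of the 31201 gene names with a UMI (a unique molecular identifier, which counts 1 captured transcript) in either of 2 Quartz-Seq2 datasets, and all 8 had at least 1 UMI in each dataset. Quartz-Seq2 sorts 1 cell into each well of a 384-well plate and counts the transcripts of each cell. Dataset 1 holds 491 kept cells of corpus and antrum, prepared as tube 1 and tube 2. Dataset 2 holds 3993 kept cells of the corpus, prepared as pools K and T. All 4 preparations were untreated male wild-type C57BL/6J mice aged 10 weeks, each a pool of 3 mice, and the 2 preparations of a dataset were made by different operators. The pool is therefore the replicate (n = 2 in each dataset), and operator and pool cannot be told apart.

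Parietal cells pump protons through the H,K-ATPase, and histamine released by enterochromaffin-like (ECL) cells is the main drive to the pump. The histamine receptor acts through Gs and cyclic AMP, while the gastrin receptor and the muscarinic receptor act through Gq and calcium. Gastrin also reaches the parietal cell indirectly, by making ECL cells release histamine. Somatostatin from D cells and prostaglandin E restrain secretion through Gi-coupled receptors, of which *Sstr2* and *Ptger3* are the best known in the stomach. *Ptger4* couples to Gs and *Casr* senses calcium at the cell surface of several endocrine cells.

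In GRCm39 (GENCODE M39), *Hrh2* lies at chr13:54345993-54390199 and *Cckbr* at chr7:105074688-105120105, both on the plus strand, and *Chrm3* at chr13:9925522-10410883 on the minus strand. *Sstr1* (chr12:58258494-58262824) and *Sstr2* (chr11:113510145-113516862) are short genes of the plus strand. *Ptger3* spans chr3:157272492-157352099 on the plus strand, *Ptger4* spans chr15:5236142-5273673 on the minus strand, and *Casr* spans chr16:36310949-36382503 on the minus strand. A protein-coding gene of the opposite strand overlaps *Sstr2* (*Slc39a11*) and *Ptger4* (*Ttc33*). Whether the counting used strand is not given in the sources used here, so reads of these partners may not be separable.

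Promoter windows of RefSeq on GRCm38.p6, from 250 bases before to 50 after the start, were available for 7 of the 8 members (all except *Sstr1*). Both strands were searched for TCAAGGTCA (an extended nuclear receptor site), TGACGTCA (the cyclic AMP response element), a GATA motif (AGATAA) and the core of the cyclic AMP response element (TGACG). The only matches were in *Sstr2*, where TGACGTCA begins 58 bases before the start and holds both matches of its core. Among 32851 windows of the same length, 1.79% hold the cyclic AMP response element, 20.8% its core, 11.2% the GATA motif and 0.423% the extended nuclear receptor site. The 250 bases before the start are shown for 3 receptors whose levels contrast most below: *Sstr2* (chr11:113619077-113619326, plus strand), *Hrh2* (the first of 2 annotated starts, chr13:54191883-54192132, plus strand) and *Ptger4* (chr15:5244188-5244437, minus strand). Capitals mark the match.
Sstr2: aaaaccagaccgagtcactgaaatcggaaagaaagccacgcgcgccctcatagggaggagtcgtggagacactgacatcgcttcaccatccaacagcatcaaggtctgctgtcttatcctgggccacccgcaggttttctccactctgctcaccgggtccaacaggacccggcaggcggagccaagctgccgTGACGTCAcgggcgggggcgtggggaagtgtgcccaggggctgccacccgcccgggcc
Hrh2: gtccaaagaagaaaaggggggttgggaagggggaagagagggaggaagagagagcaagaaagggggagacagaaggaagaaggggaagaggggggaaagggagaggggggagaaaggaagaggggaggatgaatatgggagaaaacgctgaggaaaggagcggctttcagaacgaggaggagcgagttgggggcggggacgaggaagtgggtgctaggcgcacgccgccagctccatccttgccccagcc
Ptger4: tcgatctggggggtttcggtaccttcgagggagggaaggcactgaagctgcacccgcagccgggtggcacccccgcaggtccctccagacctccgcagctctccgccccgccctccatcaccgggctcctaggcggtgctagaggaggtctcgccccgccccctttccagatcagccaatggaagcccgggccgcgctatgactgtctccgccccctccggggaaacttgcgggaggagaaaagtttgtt
A match is a description of these letters and not of a bound site.

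Depth set what could be seen. The kept cells had a median of 38757 UMIs in dataset 1 and 31020 in dataset 2, and each plate held 3054370 to 5346035 UMIs in dataset 1 and 10540256 to 12850942 in dataset 2. The same 384 well barcodes were used on every plate of a dataset, so a cell was identified by plate and barcode together. Cell type names are those the study gave its clusters, and the clusters were made from the same counts, so p-values between types also carry the clustering. Parietal cells stood apart in their mitochondrial share, with a median of 19.3% in dataset 2 and 17.4% in dataset 1, against 3.52% to 5.14% and 4.31% to 5.73% in the other named epithelial types. The part of this difference in the results was not tested. *Muc6*, the mucin of neck cells, was highest in the 4 neck clusters of dataset 2 (935 to 3456 CPM, the gene's UMIs scaled to a common total of UMIs per group), but *Tff2*, the other neck marker, was highest in pre-pit cells. Cluster 12, named neck, also held the highest summed level of chief markers, but the chief marker *Cblif* was higher in chief cells (14980 CPM against 9122 CPM). Cluster 11, named isthmus, was led by *Cym*, *Krt5* and *Krt14*. Results that rest on clusters 11 and 12 are given without them where they changed.

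The parietal cell carried 5 of the receptors at levels above the mean of the other epithelial types of dataset 2, and 1 below it. These 5 were *Hrh2*, *Cckbr*, *Chrm3*, *Sstr2* and *Ptger3*, so the receptors for all 3 secretagogues and for both classes of inhibitor were among them, and *Ptger4* was lower. For every type and pool, the UMIs of all its cells were added up and tested with edgeR (called at a Benjamini-Hochberg adjusted p under 0.05). All 6 members tested were called in parietal cells, where 67.8% of 13894 genes were called, and in other types the calls were 4 of 6 in chief cells (50% of genes), 6 of 6 in neck cells (49%), 3 of 6 in isthmus cells (51.3%), 4 of 6 in mature pit cells (39.1%) and 3 of 6 in pre-pit cells (35.6%). Over the 15 pairs of types, 69 of 90 member tests were called, against 48.1% of all tests. *Sstr1* and *Casr* were too rare in these types to be tested. Where a result below is given without a pool or tube, only the sum of 1 compared group in it was left out. All other groups kept both pools. Levels below are CPM of the receptor within the group, given for pool K and then pool T, while the fitted differences are on the log2 scale with the standard error (SE) and use TMM scaling, so they are not the plain ratios of the levels.

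**Figure D1:**
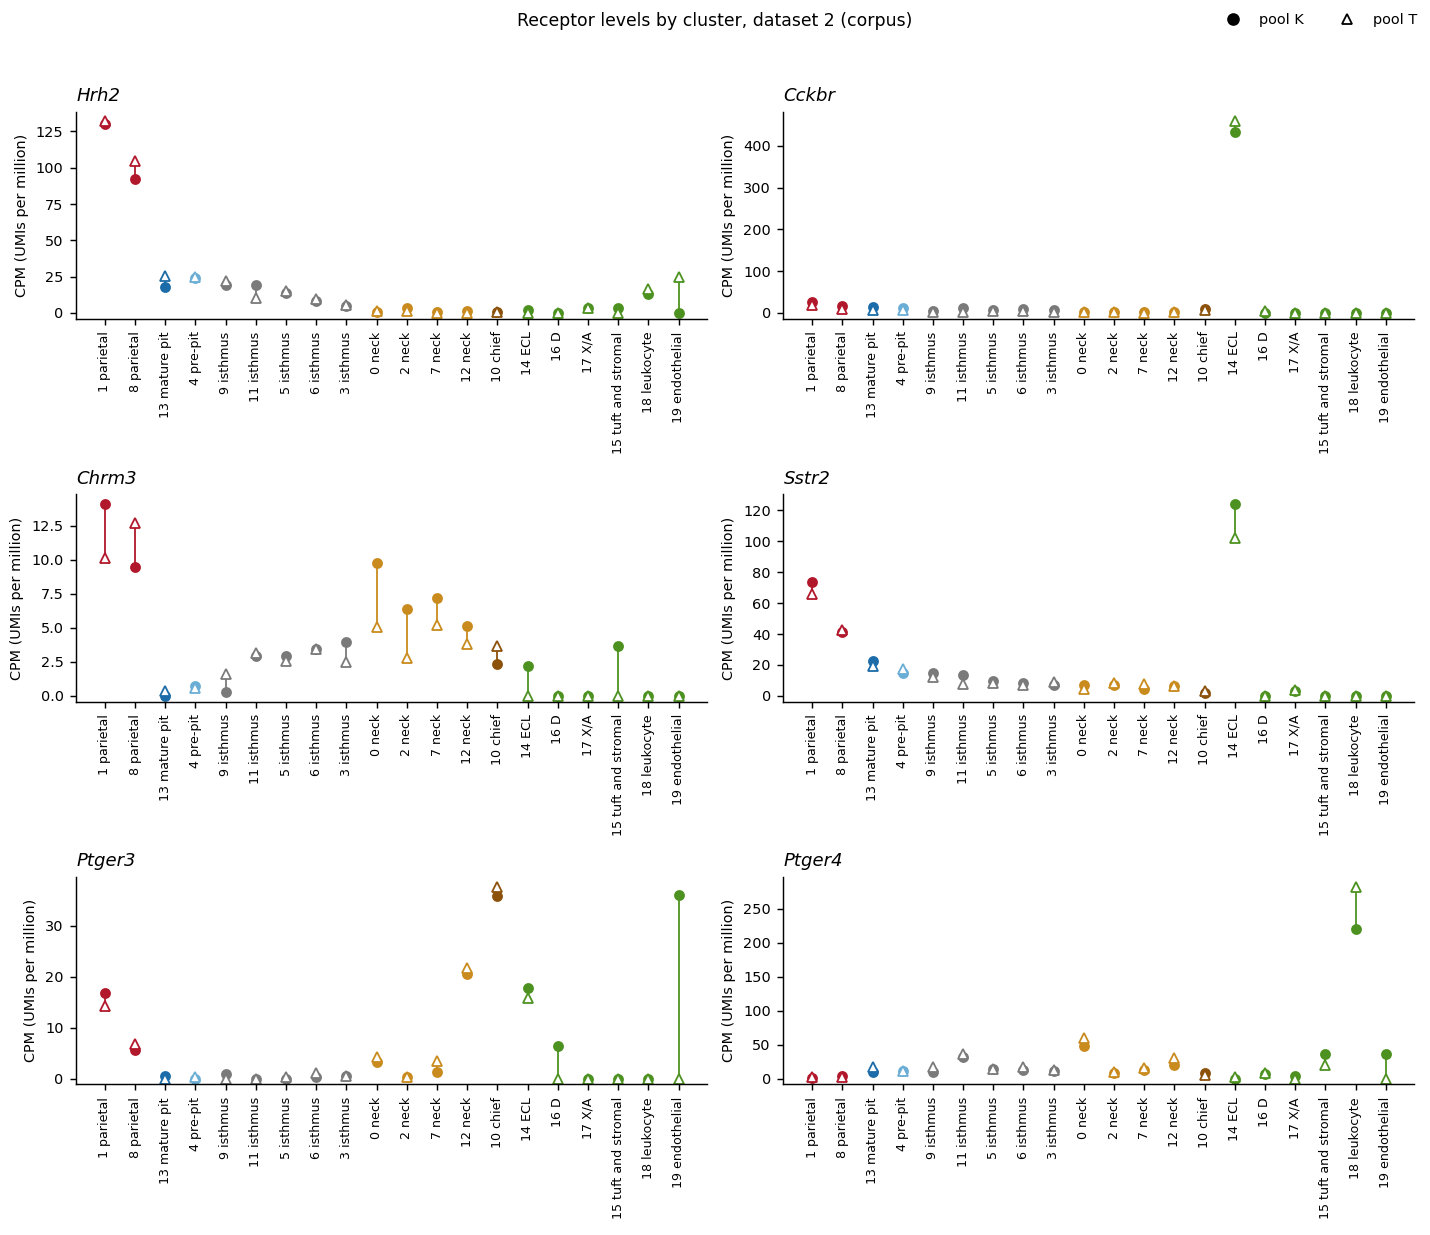
Levels of 6 receptors (y axis, CPM) in the 20 clusters of dataset 2 (x axis, cluster number and name), with filled circles for pool K and open triangles for pool T joined by a line. *Hrh2* peaks in the parietal clusters (92.1 to 132), *Cckbr* in the ECL cluster (435 and 459), *Ptger3* in chief cells (35.8 and 37.6; the endothelial point of pool K is 1 UMI) and *Ptger4* in leukocytes (220 and 282).

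*Hrh2*, the histamine receptor, had 5114 UMIs in dataset 2, of which 4095 lay in parietal cells. Its level there was 118 CPM in pool K and 120 CPM in pool T. Pre-pit cells had 24.4 and 24.9 CPM, mature pit cells 18.0 and 25.8 CPM, and isthmus cells 11.4 and 12.1 CPM. Neck cells had 1.79 and 0.856 CPM, and chief cells had 3 UMIs in all. The parietal level thus stood far above that of every other type in both pools, and the surface mucous and isthmus cells held an intermediate level that neck and chief cells lacked. Parietal cells exceeded the mean of the other types by 4.69 ± 0.10 (SE, n = 2 pools, adjusted p = 7.1e-14), or 25.9-fold. In the order of fitted levels, parietal exceeded pre-pit cells by 2.56 ± 0.14, mature pit exceeded isthmus cells by 1.28 ± 0.19 and isthmus exceeded neck cells by 3.07 ± 0.21, all called. Pre-pit and mature pit cells differed by 0.00 ± 0.19 (adjusted p = 1.00) and neck and chief cells by 0.68 ± 0.79 (adjusted p = 0.54), neither beyond the spread between pools.

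The pit level of *Hrh2* depended on the comparison. Mature pit cells were higher than the mean of the other types by 1.62 ± 0.21 (adjusted p = 3.1e-05), as were pre-pit cells (1.62 ± 0.17, adjusted p = 8.6e-06). Against the UMIs summed over all other types, the same differences were -0.53 ± 0.19 (adjusted p = 0.067, and 0.037 with the pool as a block) and -0.54 ± 0.13 (adjusted p = 0.013). Both forms include the parietal cells. The mean weighs the types equally on the log scale, while the sum weighs them by their UMIs. The levels were set beside *Atp4a* and *Atp4b*, the proton pump subunits of parietal cells. In the other types *Atp4a* was 0.420% to 2.14% of its parietal level and *Atp4b* 0.339% to 0.706%. *Hrh2* was 18.9% of its parietal level in mature pit, 20.7% in pre-pit and 9.90% in isthmus cells, but 1.12% in neck and 0.393% in chief cells. In chief cells this was below *Atp4a* (2.14%) and *Atp4b* (0.681%), and in neck cells it was above both (0.828% and 0.706%), from 38 UMIs. Within the isthmus, cluster 3 had 4.74 and 5.52 CPM of *Hrh2*, cluster 6 had 8.39 and 9.27, cluster 5 had 13.7 and 14.8, and cluster 9 had 19.1 and 21.8. Cluster 9 exceeded cluster 3 by 2.05 ± 0.25 (adjusted p = 8.5e-08), and 2 of 7 members tested, *Hrh2* and *Sstr2* (0.80 ± 0.23), differed in this pair, where 20.2% of genes did. *Casr*, among the 7, had no UMI in either cluster.

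*Cckbr*, the gastrin receptor, was counted in all 6 epithelial types. Parietal cells had 23.5 CPM in pool K and 15.1 CPM in pool T. Mature pit cells had 14.8 and 8.25 CPM, pre-pit cells 11.7 and 7.59, chief cells 9.24 and 7.83, isthmus cells 7.38 and 3.86, and neck cells 1.99 and 1.35. Pool K was higher than pool T in all 6 types, and the pools of parietal and mature pit cells almost met. Parietal cells exceeded the mean of the others by 1.87 ± 0.22 (adjusted p = 3.4e-06), or 3.66-fold, while neck cells were lower by 2.88 ± 0.34 (adjusted p = 1.1e-05). The difference between parietal and chief cells, 0.82 ± 0.37, was not called (adjusted p = 0.079), but was with the pool as a block (adjusted p = 0.0030). That between parietal and mature pit cells was 0.95 on the log2 scale and called (adjusted p = 0.040), but not with DESeq2 (adjusted p = 0.080), without scaling (0.088) or without pool T (0.33). Of the neighbours in the order below them, only isthmus and neck cells differed (1.65 ± 0.38), and with the pool as a block isthmus cells were also lower than pre-pit cells (-1.01, adjusted p = 4.8e-04).

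*Chrm3*, the muscarinic receptor through which vagal acetylcholine acts, was highest in parietal cells and was also counted in neck, chief and isthmus cells. Parietal cells had 12.6 and 11.3 CPM, neck cells 7.22 and 4.56, chief cells 2.31 and 3.66, and isthmus cells 2.96 and 2.71. Pit cells nearly lacked it, with 6 UMIs in all pre-pit cells and 1 UMI in all mature pit cells. Both parietal pools lay above both pools of every other type. Parietal cells exceeded the mean of the others by 3.23 ± 0.22 (adjusted p = 1.0e-08), and neck cells did so by 1.47 ± 0.27 (adjusted p = 5.1e-04). Against the UMIs summed over all other types the neck difference was 0.0063 ± 0.25 and not called (adjusted p = 0.99). Mature pit cells were lower by 3.98 ± 0.79 and pre-pit cells by 2.19 ± 0.65, the latter not called without pool T (-2.08, adjusted p = 0.082). Parietal cells exceeded neck cells, the next in order, by 1.46 ± 0.22, whereas neck and chief cells did not differ beyond the spread (0.11 ± 0.36, adjusted p = 0.84). The chief difference from the mean of the others (1.34 ± 0.42, adjusted p = 0.017) was lost without pool T (0.86, adjusted p = 0.37) and without scaling (0.69, adjusted p = 0.17).

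The somatostatin receptor of parietal cells was *Sstr2*. It had 63.3 CPM in pool K and 55.5 CPM in pool T of parietal cells, 22.6 and 19.6 in mature pit cells, 14.8 and 17.3 in pre-pit cells, 9.83 and 8.63 in isthmus cells, 6.26 and 5.85 in neck cells, and 1.54 and 3.13 in chief cells. Parietal cells came first and chief cells last in both pools. Parietal cells exceeded the mean of the others by 2.99 ± 0.09 (adjusted p = 2.3e-12), or 7.95-fold. The steps from parietal to mature pit (1.66 ± 0.15), from pre-pit to isthmus (1.02 ± 0.16) and from isthmus to neck cells (0.54 ± 0.15) were called, while those from mature pit to pre-pit (0.51 ± 0.19, adjusted p = 0.11) and from neck to chief cells (0.46 ± 0.33, adjusted p = 0.32) were not. *Sstr1* had 2 UMIs in all of dataset 2, 1 in a cell of the tuft and stromal cluster and 1 in a D cell, and none in the 6 epithelial types. With 0 of 702 parietal cells, the count allows a share of up to 0.427% of cells with a UMI, counting error only.

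*Ptger3*, the Gi-coupled receptor, was highest in chief cells, the pepsinogen-secreting cells of the gland base, with 35.8 and 37.6 CPM. Parietal cells had 13.2 and 10.96 CPM and neck cells 3.99 and 5.42, while isthmus cells had 21 UMIs, pre-pit cells 2 and mature pit cells 1. Chief cells exceeded the mean of the others by 5.84 ± 0.23 (adjusted p = 1.4e-10) and parietal cells by 3.46 ± 0.24 (adjusted p = 1.2e-08). Chief exceeded parietal cells by 1.98 ± 0.22, parietal exceeded neck cells by 1.80 ± 0.23 and neck exceeded isthmus cells by 3.59 ± 0.33, all called. In neck cells the receptor lay mostly in cluster 12 (20.5 and 21.7 CPM), the cluster with chief markers. The neck difference of 1.30 ± 0.32 fell to 0.27 ± 0.44 (adjusted p = 0.66) in a fit without clusters 11 and 12. Cluster 11 was left out of the isthmus cells, so the part of cluster 12 alone was not tested. Cluster 12 exceeded neck cluster 0 in *Ptger3* by 2.60 ± 0.36 (adjusted p = 3.7e-06) and was lower in *Ptger4* by 0.96 ± 0.23, in a comparison where 9.4% of genes were called. Chief cells exceeded cluster 12 in *Ptger3* by 1.43 ± 0.29 and in *Cckbr* by 3.17 ± 0.79 and were lower in *Ptger4* by 1.34 ± 0.33, where 19.9% of genes were called.

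*Ptger4*, the Gs-coupled receptor, was lowest in parietal cells and highest in neck cells. Parietal cells had the lowest level, 2.05 and 2.01 CPM, with 70 of the 2104 UMIs of dataset 2. Neck cells had 20.4 CPM in pool K and 42.2 CPM in pool T, isthmus cells 14.3 and 18.0, mature pit cells 10.2 and 17.5, pre-pit cells 11.3 and 11.95, and chief cells 7.70 and 5.22. Both parietal pools lay below all other values, and pool T of the neck cells lay far above pool K. Parietal cells were lower than the mean of the others by 2.57 ± 0.34 (adjusted p = 1.1e-05) and neck cells higher by 1.63 ± 0.22 (adjusted p = 4.1e-05). The step from chief down to parietal cells was 1.999 ± 0.57 (adjusted p = 0.0090, and 0.094 without pool K). No step between neighbours in the order of the 5 higher types was called, except that from neck to mature pit cells with the pool as a block (adjusted p = 0.015). The neck level rested on cluster 0, which had 48.0 and 59.8 CPM and a UMI in 242 of its 471 cells, while cluster 2 had 8.97 and 10.05 CPM. Cluster 0 exceeded cluster 2 by 2.59 ± 0.23 in *Ptger4* and by 3.29 ± 0.69 in *Ptger3*, 2 of 7 members tested in a pair with 7.82% of genes called. *Casr*, among the 7, had no UMI in either cluster. Cluster 0 supplied 135 of 644 neck cells in pool K and 336 of 603 in pool T.

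Parietal cells formed 2 clusters in dataset 2, and 4 receptors were higher in the larger one. Cluster 1 (458 cells) had 130 and 132 CPM of *Hrh2*, against 92.1 and 104 in cluster 8 (244 cells). *Cckbr* was 26.4 and 19.5 against 17.6 and 9.46, *Sstr2* 73.8 and 65.6 against 41.4 and 42.6, and *Ptger3* 16.8 and 14.2 against 5.71 and 6.80. The pools of the clusters did not overlap for these 4 genes. The differences were 0.63 ± 0.13 for *Hrh2* (adjusted p = 3.6e-04), 1.00 ± 0.29 for *Cckbr* (0.011), 0.95 ± 0.14 for *Sstr2* (3.5e-06) and 1.52 ± 0.28 for *Ptger3* (1.3e-04). *Chrm3* (0.35 ± 0.28, adjusted p = 0.45) and *Ptger4* (-0.68 ± 0.40, adjusted p = 0.27) were not called. In all, 4 of the 7 members tested were called, where 19.8% of genes were. *Casr*, among the 7, had no UMI in either cluster and could not differ. The *Cckbr* difference was lost without pool K of cluster 1 (0.78, adjusted p = 0.19) and without pool T of cluster 8 (0.68, adjusted p = 0.21). The median mitochondrial share was 22.8% in cluster 1 and 12.6% in cluster 8, and its part in these differences was not tested.

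Outside the epithelium proper, the endocrine and blood-borne clusters of dataset 2 were small, and each was compared with the UMIs summed over all other cells of its pool. In this form 75 of 123 member tests over 20 clusters were called, against 35.3% of all tests. ECL cells (cluster 14, 53 cells), whose defining genes *Hdc* and *Slc18a2* make and store histamine, had the highest *Cckbr* of any cluster, 435 CPM in pool K and 459 CPM in pool T. The receptor had a UMI in 51 of the 53 cells. They exceeded all other cells by 5.25 ± 0.25 (adjusted p = 4.0e-07), or 38.0-fold. *Sstr2* followed, with 124 and 102.5 CPM and a difference of 1.958 ± 0.21 (adjusted p = 6.2e-05). *Ptger3* had 17.7 and 15.9 CPM (1.09 ± 0.36, adjusted p = 0.035), a call that was lost with the pool as a block (0.056) and without either pool. *Hrh2* was lower by 5.64 ± 0.63, with 1 UMI, and *Ptger4* by 4.35 ± 1.06, with 1 UMI, the latter not without either pool (adjusted p of 0.088 and 0.11). In all, 5 of 7 members were called in ECL cells, where 43.6% of genes were.

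Set against parietal cluster 1 directly, ECL cells had 3.43 ± 0.27 more *Cckbr* (adjusted p = 7.1e-13), 7.82 ± 0.49 less *Hrh2* and 4.41 ± 0.90 less *Chrm3*. *Sstr2* did not differ beyond the spread (-0.15 ± 0.18, adjusted p = 0.54), nor did *Ptger3* (-0.73 ± 0.42, adjusted p = 0.16). *Casr* passed the test with 2 UMIs in ECL cells and 0 in cluster 1, too few to give a fold. Thus 4 of 7 members were called, *Casr* among them, where 48% of genes were.

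*Casr* was counted in few cells, with 18 UMIs in 16 cells of dataset 2. X/A cells (cluster 17, 29 cells), which make ghrelin, had 16.9 and 14.2 CPM from 9 UMIs in 8 cells, and D cells (cluster 16, 31 cells), the source of somatostatin, had 31.6 and 3.94 CPM from 5 and 1 UMIs. ECL cells had 2 UMIs and isthmus cluster 5 had 1. The fitted differences were 7.55 ± 0.84 in X/A cells (adjusted p = 9.0e-05) and 6.95 ± 1.07 in D cells (adjusted p = 4.2e-04), and the UMIs behind them set the precision. In this form *Casr* passed the filter on low counts only for ECL, D and X/A cells, where most of its UMIs lay. Its calls therefore describe these counts and are no separate support. In ECL cells the test was not passed (adjusted p = 0.057). D cells had no UMI of *Sstr2* or *Hrh2*, both called lower, the former not without either pool (adjusted p of 0.061 and 0.13). In D cells 3 of 7 members were called (35% of genes), and in X/A cells 5 of 7 (38.1%), both counts with *Casr* included.

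*Ptger4* had its highest level in leukocytes (cluster 18, 13 cells, which carry macrophage markers), 220 and 282 CPM from 17 UMIs in each pool. The difference from all other cells was 3.85 ± 0.50 (adjusted p = 4.6e-04), the only call among 6 members in a cluster where 15.8% of genes were called. This cluster was shallow, with a median of 9581 UMIs a cell. In the same comparison neck cluster 0 exceeded all other cells in *Ptger4* by 2.20 ± 0.17 (adjusted p = 9.6e-05, and 0.075 without pool T), as 1 of 5 calls among 6 members (37.1% of genes). Chief cells exceeded all others in *Ptger3* by 3.84 ± 0.18 (adjusted p = 1.2e-06), as 1 of 3 calls among 6 members (42.1%).

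**Figure D2:**
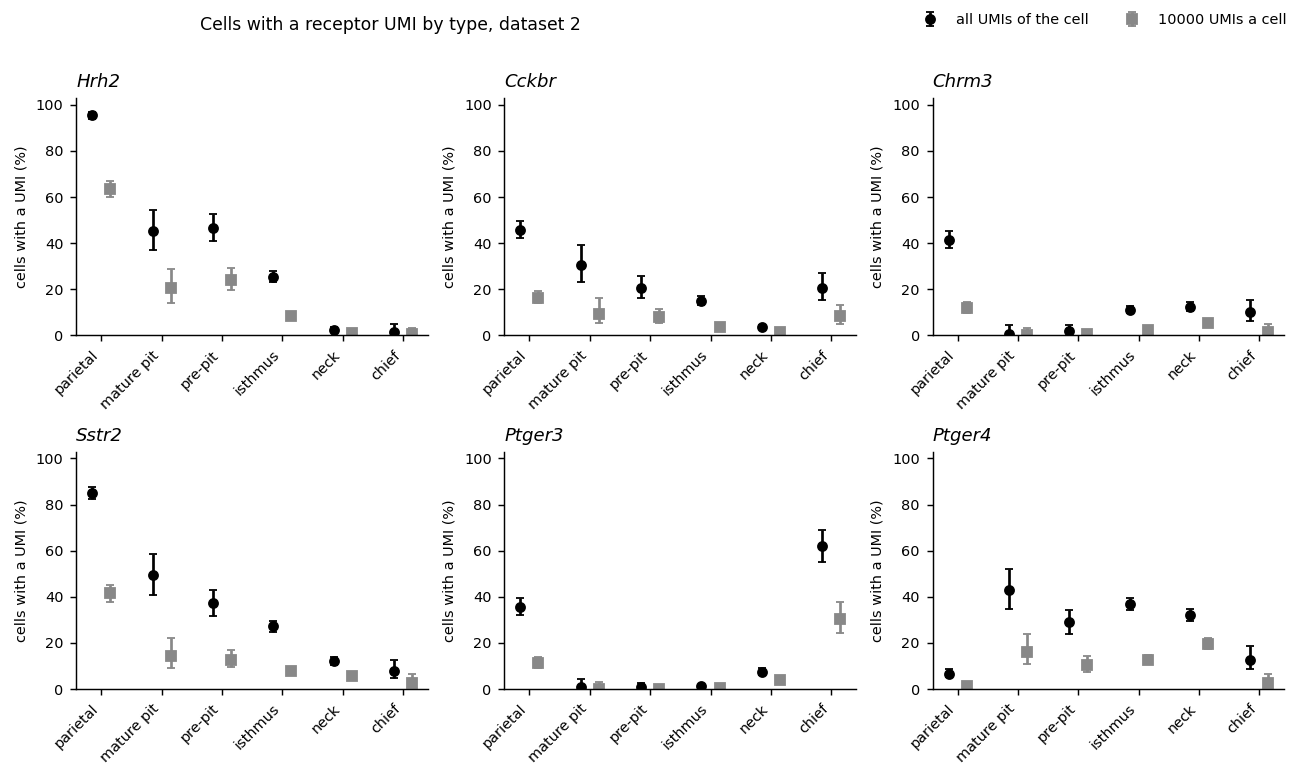
Share of cells with at least 1 UMI (y axis, percent) of 6 receptors in the 6 epithelial types of dataset 2 (x axis), over all UMIs of a cell (black circles) and after thinning to 10000 UMIs a cell (grey squares), with Wilson 95% intervals. *Hrh2* reaches 95.6% of parietal cells and 63.6% after thinning, and *Ptger3* reaches 62.2% and 30.6% of chief cells.

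Counted by cell, 95.6% of the 702 parietal cells of dataset 2 had a UMI of *Hrh2* (Wilson 95% interval 93.8% to 96.9%). The shares were 85.2% for *Sstr2*, 45.9% for *Cckbr*, 41.5% for *Chrm3*, 35.8% for *Ptger3* and 6.70% for *Ptger4*, and 0% for *Casr* and *Sstr1*. These shares rise with depth, and the median parietal cell had 47647 UMIs against 22530 in neck cells. After thinning each cell to 10000 UMIs, which left out 1 parietal cell, they were 63.6% for *Hrh2*, 41.5% for *Sstr2*, 16.4% for *Cckbr*, 11.7% for *Chrm3*, 11.3% for *Ptger3* and 1.43% for *Ptger4*. Neck cells had a UMI of *Hrh2* in 2.57% of 1247 cells. *Ptger3* had a UMI in 62.2% of 180 chief cells (55.0% to 69.0%) and in 30.6% after thinning. The intervals cover counting error only.

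Many parietal cells had UMIs of more than 1 secretagogue receptor. Of the 702 cells, 128 had UMIs of *Hrh2*, *Cckbr* and *Chrm3*, 342 had exactly 2 of the 3, 216 had 1 and 16 had none. At least 2 were seen in 470 cells (67.0%), and in 17.8% after thinning. *Hrh2* alone was seen in 206 cells, *Hrh2* with *Cckbr* in 184 and *Hrh2* with *Chrm3* in 153. *Sstr2* had a UMI in 574 of the 671 cells with *Hrh2* (85.5%) and in 24 of the 31 cells without it (77.4%). After thinning these shares were 40.8% and 42.7%. In dataset 1, 9 of 57 parietal cells had all 3 secretagogue receptors, 29 had 2, 16 had 1 and 3 had none.

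Dataset 1 gave the same receptors from other mice and with antrum cells in the suspension. Its named epithelial types were parietal (57 cells), neck (45), isthmus-like (53), corpus mature pit (26) and pre-pit (46), and antrum mature pit (49) and pre-pit cells (32), with no cluster named chief. Some types had no UMI of a receptor, so parietal cells were compared with the UMIs summed over the other types. All 6 members tested were called, where 57.8% of genes were: *Hrh2* (4.44 ± 0.27, adjusted p = 3.4e-07), *Sstr2* (2.91 ± 0.30), *Chrm3* (3.04 ± 0.44), *Cckbr* (1.66 ± 0.42, adjusted p = 0.0064) and *Ptger3* were higher and *Ptger4* was lower (-5.91 ± 0.62). The *Cckbr* call was lost without tube 2 (1.14 ± 0.71, adjusted p = 0.23). *Ptger3* had 35 UMIs in parietal cells and 1 in the other types together, and *Ptger4* had 1 UMI in parietal cells, so the folds of both rest on that UMI. Among these fits by type, *Ptger3* passed the filter on low counts only in the parietal one, where its UMIs lay. Its call is therefore no separate support, though it is in the count above. The same form of test in dataset 2, with 69.6% of genes called, gave 4.03 ± 0.08 for *Hrh2*, 3.14 ± 0.09 for *Sstr2*, 2.26 ± 0.18 for *Chrm3*, 2.32 ± 0.26 for *Cckbr*, 2.10 ± 0.17 for *Ptger3* and -2.79 ± 0.25 for *Ptger4*. The other types were not alike, since those of dataset 2 included chief cells, the type highest in *Ptger3*. Those of dataset 1 included antrum pit cells and no chief cells.

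**Figure D3:**
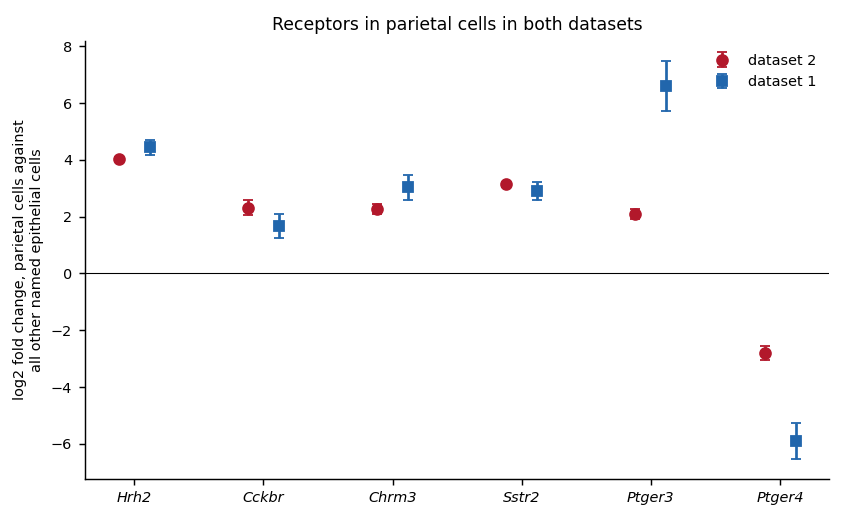
Log2 fold change of 6 receptors (x axis) between parietal cells and the summed other named epithelial cells (y axis), with bars of 1 standard error, for dataset 2 (red circles) and dataset 1 (blue squares). The other cells include chief cells in dataset 2 only and antrum pit cells in dataset 1 only. *Hrh2* stands at 4.03 and 4.44, and *Ptger4* lies below 0 in both datasets (-2.79 and -5.91); the *Ptger3* and *Ptger4* points of dataset 1 rest on 1 UMI in one of the groups.

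The differences between the datasets were tested as an interaction over the types that both hold. For 3 members the contrast could be computed and 0 were called, where 2.56% of genes were. In edgeR, the difference of the parietal contrast, dataset 2 minus dataset 1, was 0.70 ± 0.67 for *Cckbr* (adjusted p = 0.67), -0.72 ± 0.39 for *Sstr2* (adjusted p = 0.37) and 3.17 ± 1.51 for *Ptger4* (adjusted p = 0.29), and 1 of them, *Ptger4*, had an unadjusted p under 0.05. With RLE scaling 0 members were called and none had an unadjusted p under 0.05. With pre-pit cells as the only reference, 5 members could be tested, among them *Hrh2* (0.13 ± 0.34, adjusted p = 0.92), and 0 were called.

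**Figure D4:**
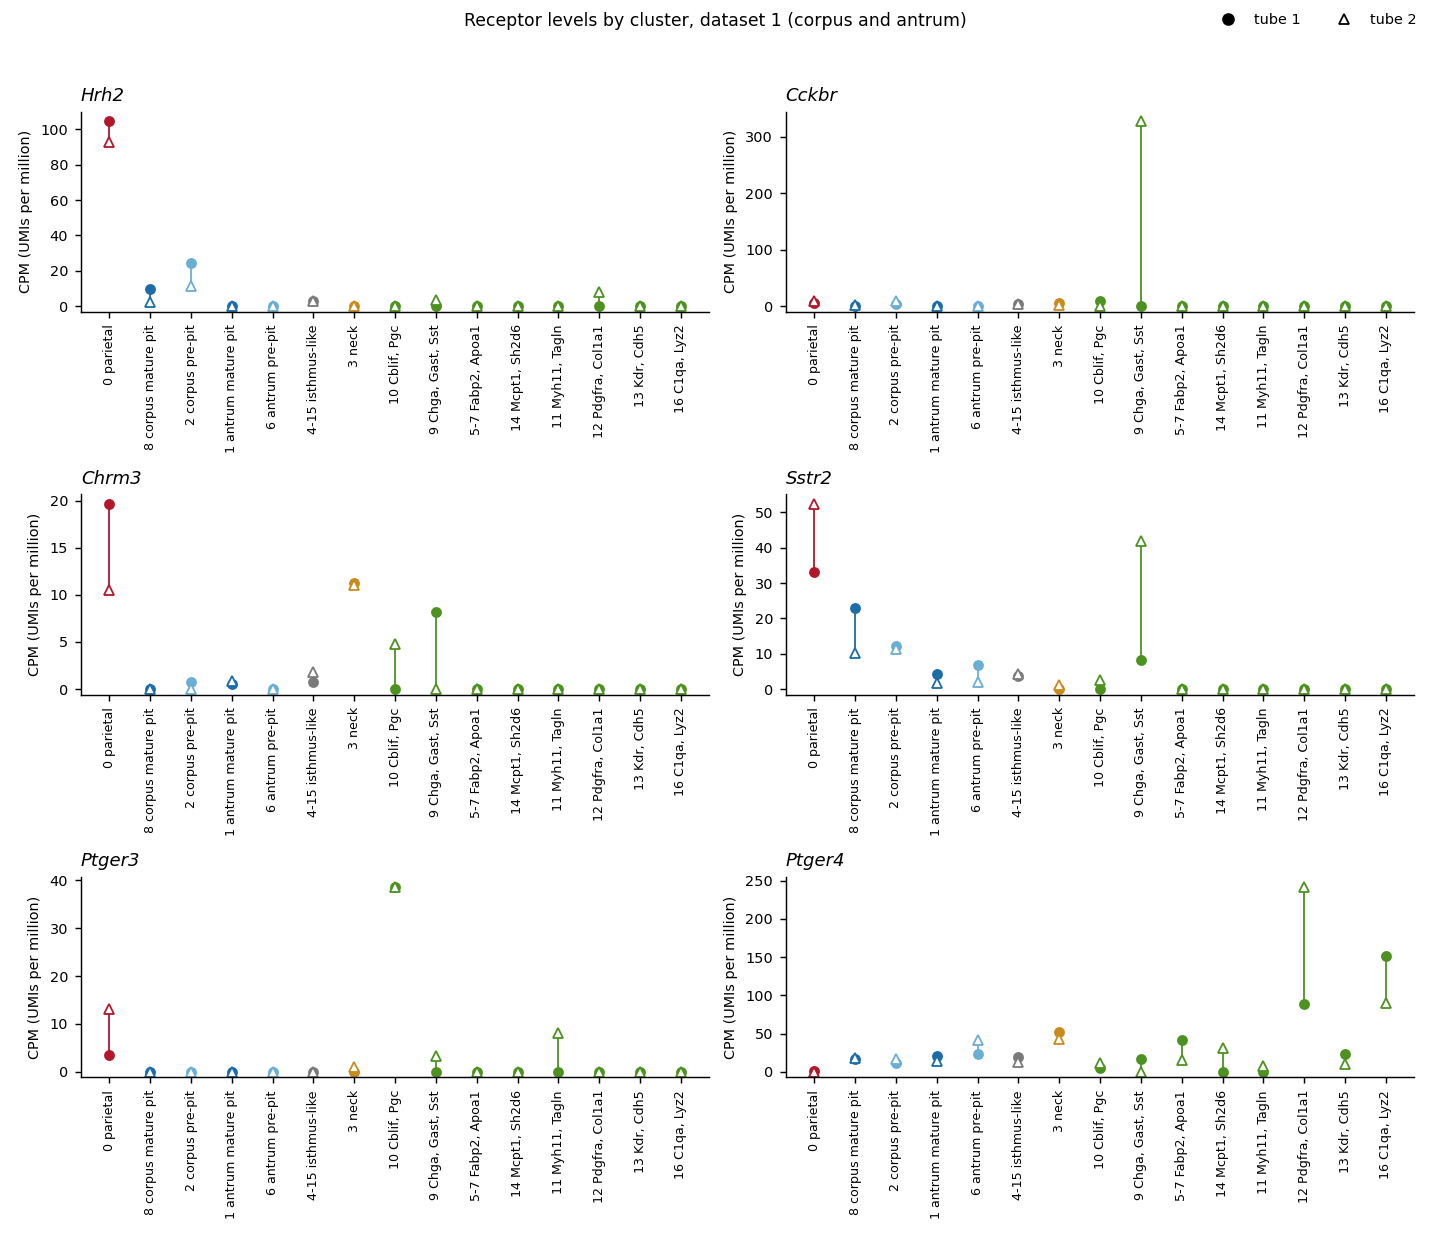
Levels of 6 receptors (y axis, CPM) in the 15 clusters of dataset 1 (x axis, cluster number with its name or leading genes), with filled circles for tube 1 and open triangles for tube 2 joined by a line. *Hrh2* is at 105 and 92.7 in parietal cells and 0 in both antrum pit clusters, and *Cckbr* is at 0 and 329 in cluster 9.

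The levels of dataset 1 are given for tube 1 and then tube 2. *Hrh2* had 105 CPM in tube 1 and 92.7 CPM in tube 2 of parietal cells, 24.4 and 11.3 in corpus pre-pit cells, 9.89 and 2.53 in corpus mature pit cells and 2.99 and 2.95 in isthmus-like cells. It had 0 UMIs in neck cells and in both antrum pit clusters. *Sstr2* had 33.1 and 52.5 CPM in parietal, 23.1 and 10.1 in corpus mature pit and 12.2 and 11.3 in corpus pre-pit cells. *Chrm3* had 19.7 and 10.6 CPM in parietal and 11.3 and 11.1 in neck cells, whose values overlapped. *Cckbr* had 5.38 and 8.89 CPM and *Ptger3* 3.58 and 13.1 CPM in parietal cells. *Ptger4* was highest among the named types in neck cells, 51.6 and 43.3 CPM. Over 21 pairs of types 47 of 84 member tests were called (33.8% of all tests), and over the 15 clusters 29 of 90 (26.7%).

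The pit cells of corpus and antrum lay in the same suspension and differed in *Hrh2*. Corpus pit cells had 55 UMIs of it and antrum pit cells had 0 (edgeR, adjusted p = 3.2e-04). *Sstr2* was higher in corpus pit cells by 1.81 ± 0.44 (adjusted p = 0.011), with antrum levels of 4.24 and 1.69 CPM in mature and 6.91 and 2.07 CPM in pre-pit cells. That call was lost with DESeq2 (adjusted p = 0.060) and without tube 1 of the corpus mature pit cells (0.093). *Ptger4* was not called (-0.61 ± 0.28, adjusted p = 0.21). In all, 2 of 3 members were called, where 9.24% of genes were. Antrum pre-pit cells (cluster 6) were led by *Zg16*, *Muc2*, *Tff3* and *Fcgbp*, genes of intestinal goblet cells, and only the cluster of a cell tells its region.

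Among the clusters of dataset 1 that were given no type name here, cluster 10, led by *Cblif* and *Chia1* and other genes of the gland base, had 38.6 and 38.7 CPM of *Ptger3* (4.94 ± 0.77 over all other cells, adjusted p = 0.0052, and 0.056 to 0.061 without either tube). *Ptger4* was highest in cluster 12, led by *Mgp*, *Pdgfra* and *Ccl11*, with 88.4 and 242 CPM (2.91 ± 0.44, adjusted p = 0.0019, and 0.12 without tube 2). The macrophage-led cluster 16 had 152 and 89.96 CPM (1.997 ± 0.48, adjusted p = 0.023, 0.074 with the pool as a block and 0.073 to 0.079 without either tube). Clusters 12 and 16 were shallow, with median UMI counts a cell of 0.289 and 0.326 times the median of the dataset.

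Cluster 9 of dataset 1 mixed endocrine cells, with *Gast*, *Sst*, *Ghrl* or *Hdc* as the leading hormone gene of a cell. All UMIs of *Cckbr* there were in tube 2 (329 CPM), 65 in *Ghrl*-led and 37 in *Hdc*-led cells, and tube 1 had 0. The 11 cells with *Cckbr* all had UMIs of *Slc18a2*, and 10 of them had at least 10 UMIs of *Hdc*. Their *Ghrl* counts were 4 to 919 UMIs (median 28). The 6 cells of tube 2 without *Cckbr* had at most 1 UMI of *Hdc*, and 3 of them had UMIs of *Slc18a2*. Their *Ghrl* counts were 6 to 4992 UMIs (median 880.5). Tube 1 had 7 cells in this cluster, 2 with UMIs of *Slc18a2*, none with an *Hdc* UMI and none with *Cckbr*. The call of *Cckbr* in the cluster (5.45 ± 0.92, adjusted p = 0.0051) was reversed without tube 2 (-7.45, adjusted p = 0.53). *Sstr1* had 3 UMIs in 1 *Gast*-led cell and *Casr* had 5 UMIs in the cluster, 3 of them in *Sst*-led cells.

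Genes for histamine and somatostatin were counted mainly in 1 cluster each. Of the UMIs of *Hdc* in dataset 2, 96.7% were in ECL cells, and of those of *Sst* 97.3% were in D cells. *Ptgs1*, a cyclooxygenase at the head of prostaglandin synthesis, had 71.6% of its UMIs in the tuft and stromal cluster. *Gast* had 14 UMIs in the corpus cells of dataset 2 and 7892 in dataset 1, 99.6% of them in cluster 9.

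Other genes of the pathway were taken from 8 lists and read in parietal cells of dataset 2, where 35.2% of all genes were higher and 32.6% lower and the median log2 fold change over all genes was -0.03. All 10 acid secretion effectors were higher (median 5.76), among them the pump subunit *Atp4b* (7.66 ± 0.12), the chloride transporters *Slc26a9* (7.57 ± 0.16) and *Slc26a7* (7.27 ± 0.18) and, with the smallest difference, the membrane linker *Ezr* (1.84 ± 0.06). Of 10 tested genes of the cyclic AMP arm, 7 were higher and 2 lower (median 0.40). The phosphodiesterases *Pde4d* (1.74 ± 0.11) and *Pde3b* (1.25 ± 0.08) and the protein kinase A subunits *Prkar1a* (1.20 ± 0.06) and *Prkacb* (1.11 ± 0.09) were higher, and *Gnas*, the Gs alpha subunit, was lower (-0.30 ± 0.07). Of 12 genes of the Gq and calcium arm, 4 were higher, 4 lower and 4 not called (median 0.04). The inositol trisphosphate receptor *Itpr2* was higher by 5.84 ± 0.08 and *Itpr1* by 1.09 ± 0.15, while *Itpr3* was lower (-1.16 ± 0.09), as was the phospholipase *Plcb1* (-1.28 ± 0.20), and the G protein gene *Gnaq* was not called (0.01 ± 0.09).

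**Figure D5:**
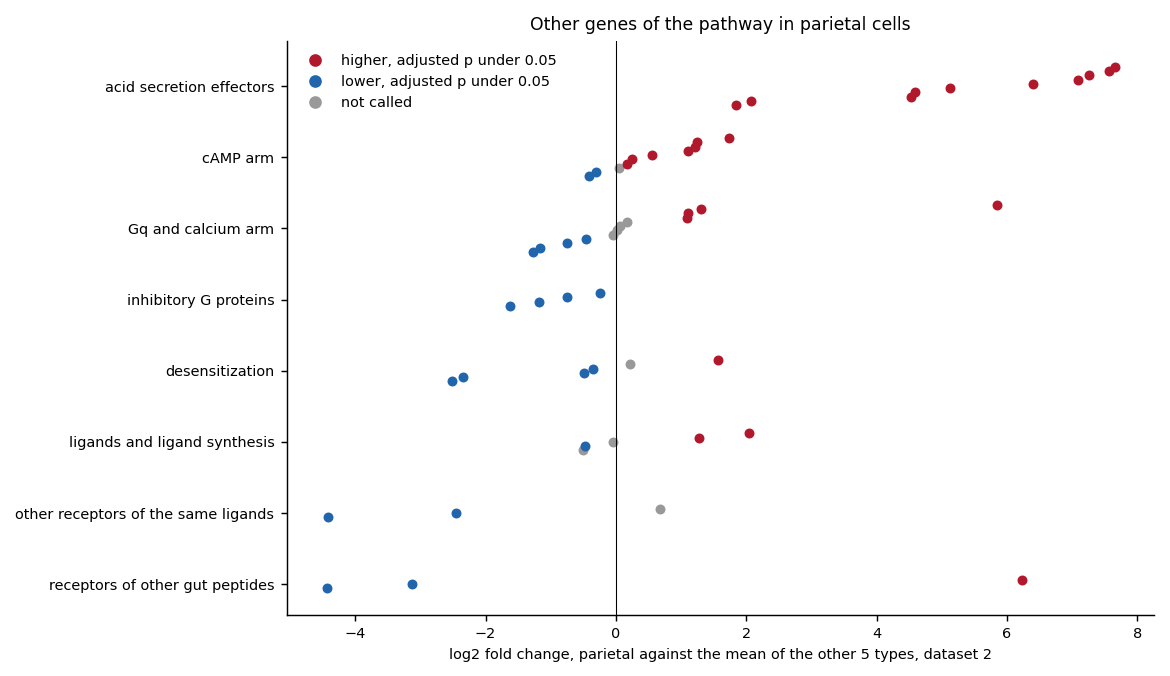
Log2 fold change between parietal cells and the mean of the other 5 types of dataset 2 (x axis) for the tested genes of 8 pathway lists (rows), each point a gene, red when higher, blue when lower and grey when not called. All 10 acid secretion effectors lie above 0, up to 7.66, and the 4 inhibitory G protein genes lie below 0.

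The 4 tested genes of inhibitory G proteins were all lower in parietal cells, from *Gnai1* (-1.63 ± 0.14) to *Gnai3* (-0.24 ± 0.06). Of 6 genes of receptor desensitization, the arrestin *Arrb1* was higher (1.57 ± 0.10), 4 were lower, including *Rgs2* (-2.52 ± 0.63) and the arrestin *Arrb2* (-2.35 ± 0.20), and *Grk5* was not called. Of 13 other receptors of the same ligands only 3 could be tested: *Chrm1* (-4.42 ± 0.38) and *Cckar* (-2.45 ± 0.17) were lower and *Ptger1* was not called (0.68 ± 0.43, adjusted p = 0.18). Of 11 receptors of other gut peptides only 3 gave a result. *Adcyap1r1*, the receptor of the neuropeptide PACAP, was higher (6.24 ± 0.11), while the secretin receptor *Sctr* (-4.44 ± 0.19) and *Glp1r* (-3.13 ± 0.21) were lower. Of 5 tested genes of ligand synthesis and breakdown, the prostaglandin-degrading enzyme *Hpgd* (2.04 ± 0.08) and the synthase *Ptges2* (1.27 ± 0.09) were higher and *Ptges3* was lower (-0.48 ± 0.07). Without scaling the median of all genes moved to -0.23, *Adcy6* and *Prkaca* were no longer called, *Gna11* and *Camk2d* were called lower, and the other calls of these lists did not change, nor did any with RLE scaling.

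The genes most like each receptor were sought over the 40 sums of cluster and pool of dataset 2 (13759 genes, Pearson's r of log2 levels). These sums share libraries and pools, so r is given as a description. *Pkm*, a glycolytic enzyme, was most like *Hrh2* (r = 0.93), followed by *Eno1* and *Sod1* (both 0.86). *Sstr2* itself was most like *Cckbr* (0.83), and *Nudt17* was most like *Sstr2* (0.92). *Adhfe1* was most like *Chrm3* (0.89), *Rabac1* most like *Ptger3* (0.80) and *Cxcl16* most like *Ptger4* (0.85).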

How the data were processed

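Stomach cells were profiled by Quartz-Seq2 on 18 plates of 384 wells, and the authors deposited UMI counts per gene and well, with the cluster, the total and detected-gene counts and the percent of mitochondrial UMIs of each kept cell. Per the labels and the methods of the study, dataset 1 was digested with pronase and then collagenase, strained at 20 µm and depleted of dead cells, and dataset 2 with collagenase and then pronase and sorted as Hoechst33342-positive, TO-PRO-3-negative cells. Reads were demultiplexed with bcl2fastq 2.20.0.422 and aligned by STAR to GRCm39, and FASTX-Toolkit and Drop-seq tools also served, per the submitters' processing notes. Wells under 2500 genes were removed and clusters made in Seurat by the authors, from the same counts. Such clustering makes p-values between clusters too small, and sorting and straining set which cells were seen.

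UMIs were summed per pool and type or cluster. edgeR 4.0.16 (R 4.3.3) fitted quasi-likelihood models with TMM scaling and filterByExpr over all genes, with Benjamini-Hochberg adjustment. The SE was the log2 fold change divided by the root of F. The fits had 12 sums in dataset 2 (13894 genes) and 14 in dataset 1 (10229 genes) for types, and 40 (15295 genes) and 30 (11965 genes) for clusters. Where another group had no UMI, the mean of the others on the log scale could not be fitted, and a comparison with the UMIs summed over all others of the pool, chosen after seeing the data, was used. Comparisons of single pairs of clusters, pre-pit cells as the only reference, types without clusters 11 and 12, and no scaling were also chosen after seeing the data. The test was tried on simulated data for parietal cells of dataset 2 (13894 genes), where it recovered 79 of 100 genes changed 2-fold and 95 of 100 changed 4-fold. In the simulation all types shared the same mean levels, and only 200 genes, drawn from the better counted ones, were changed. In the real comparison 67.8% of genes were called, so these shares do not carry over to the data. Cells were not treated as replicates, and plates of a pool are technical. The pools of a dataset pair the groups by design, since every cell type of a pool came from the same mice. Deviations of type pairs correlated with a median r of 0.132 in dataset 2 (over 0.1 in 12 of 15 pairs) and 0.0245 in dataset 1 (0 of 21).

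Alternatives were DESeq2 1.42.0, RLE scaling, no filter, the plate as the unit, the pool as a block, leaving out each pool and, for shares of cells, thinning to 10000 UMIs or at least 4000 genes. Leaving out a pool removed only its sum for a compared group, and for pairs of types this was the type first in the alphabet. All other sums stayed. The text names the members, the called genes of the pathway lists with the largest differences (*Ezr* and *Gnas* were added after their values were seen), and the genes most like each member by Pearson's r. The members and gene lists were chosen with earlier results of these data known. Doublets were not called here.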

Additional observations from a re-analysis of the deposited data

Results flagged for a closer look

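In pool K, the parietal cells of 1 of the 6 plates had 9.36 CPM of *Ptger3*, below the other plates, which had 12.8 to 14.9 CPM. Its gap to the nearest plate was 0.625 of the whole range. In all, 16 groups of 6 plates were tested in this way, and chance flags about 1 group in 20.

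Wells that the study did not keep also held UMIs of the receptors. The 1813 such wells of dataset 1 held 7 UMIs of *Hrh2* and 16 of *Ptger4*. The 615 such wells of dataset 2 held 37 UMIs of *Hrh2*, 7 of *Cckbr*, 8 of *Sstr2* and 6 of *Ptger4*. These wells held 13.2% of all UMIs of dataset 1 and 1.17% of those of dataset 2.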

How the results depend on the processing

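With 2 pools a group, each estimate of spread rests on few sums, and receptors with under about 20 UMIs in a cluster were limited by depth. The differences of *Hrh2*, *Cckbr*, *Chrm3*, *Sstr2*, *Ptger3* and *Ptger4* in parietal cells of dataset 2 kept their direction and their call under every alternative run. Without 1 pool of the parietal cells they ranged from 4.68 to 4.69 for *Hrh2*, 1.498 to 2.15 for *Cckbr*, 3.13 to 3.30 for *Chrm3*, 2.88 to 3.08 for *Sstr2*, 3.30 to 3.59 for *Ptger3* and -2.60 to -2.57 for *Ptger4*. In dataset 1 they ranged from 4.40 to 4.53 for *Hrh2*, 1.14 to 1.91 for *Cckbr*, where the call was lost without tube 2, 2.66 to 3.50 for *Chrm3*, 2.46 to 3.17 for *Sstr2* and -9.72 to -4.39 for *Ptger4*. Against the summed others in place of the mean of the other types of dataset 2, the sign turned for *Hrh2* in mature pit (-0.53) and pre-pit cells (-0.54), *Ptger3* in neck cells (-0.53) and *Chrm3* in chief cells (-0.077). In that form the calls of *Chrm3* in neck cells (0.0063) and *Sstr2* in mature pit cells (0.16) were lost. The summed form adds up UMIs, whereas the other form averages the types on the log scale. *Cckbr* in cluster 9 of dataset 1 ranged from -7.45 without tube 2 to 6.12 without tube 1.

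Member calls in dataset 1 fell from 21 to 11 to 13 without 1 tube for types against summed others, from 47 to 23 with the plate as the unit for pairs and from 2 to 1 with DESeq2 or the plate for pit regions, and rose from 29 to 49 with no filter for clusters. Without 1 pool, genes called ranged from 3411 to 4206 in place of 5433 in mature pit and from 2999 to 3517 in place of 4943 in pre-pit cells, both lowest without pool T, and with DESeq2 504 in place of 945 between pit regions. Without 1 pool, member calls over types of dataset 2 ranged from 22 to 26, and over its parietal clusters from 3 to 4. Without scaling, 40.6% of the genes called in parietal cells were higher, against 51.9% with TMM and 50.7% with RLE. After thinning, the shares of parietal cells with a UMI were 63.6% for *Hrh2*, 16.4% for *Cckbr*, 11.7% for *Chrm3*, 41.5% for *Sstr2*, 11.3% for *Ptger3* and 1.43% for *Ptger4* in dataset 2, with at least 2 secretagogue receptors in 17.8%, and in dataset 1 54.4%, 3.51%, 15.8%, 38.6% and 8.77% for the first 5. With at least 4000 genes they were 96.4% (*Hrh2*) and 7.03% (*Ptger4*) in dataset 2 and 96.3% (*Hrh2*) in dataset 1.

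With the pool as a replicate block, the calls of *Ptger3* in ECL (adjusted p = 0.056) and X/A cells (0.059), of *Ptger4* in cluster 16 of dataset 1 (0.074) and of *Chrm3* in its cluster 8 (0.063) were lost in edgeR, and the block lost no other call and added 30 over all member tests. In the fit of all 40 cluster sums, pools were left out for the comparison of parietal clusters 1 and 8 only and no scaling was not run, and for dataset 1 clusters the leaving out was run for clusters 0, 3, 9, 10, 12 and 16 only.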
